A study of Mus musculus with 6 samples.

Results

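The isocitrate dehydrogenases Idh1, Idh2, Idh3a, Idh3b and Idh3g were examined together with D2hgdh, Adhfe1 and Ogdh, whose enzymes act on 2-hydroxyglutarate or on the product of the dehydrogenases. The 8 genes were taken by name from count tables of 46078 genes, and all 8 were among the 16813 genes with enough counts to be tested. Growth plates of the knee region (distal femur, proximal tibia) of E18.5 mouse embryos had been sequenced as bulk RNA, in 3 control libraries (Idh1 LSL/+) and 3 Idh1 mutant libraries (Col2a1-Cre; Idh1 LSL/+). All 6 animals therefore carried the mutant Idh1 allele behind a loxP-flanked stop cassette, and the Cre transgene, driven by the promoter of the cartilage collagen gene Col2a1, removes that stop in cells that use the promoter. Expression of the mutant allele and presence of the Cre transgene could not be told apart, since no library carried Cre without the allele. Counts per gene do not separate RNA of the mutant Idh1 allele from RNA of the wild-type allele.

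Isocitrate dehydrogenases turn isocitrate into α-ketoglutarate. Idh1 does so in the cytosol and Idh2 in mitochondria, both with NADP, whereas Idh3a, Idh3b and Idh3g encode the subunits of the NAD-dependent enzyme of the citric acid cycle. Mutant forms of IDH1 found in cartilage tumours reduce α-ketoglutarate to D-2-hydroxyglutarate instead. D2hgdh encodes the mitochondrial enzyme that oxidises D-2-hydroxyglutarate back to α-ketoglutarate, Ogdh encodes the subunit of the α-ketoglutarate dehydrogenase complex that takes up α-ketoglutarate, and Adhfe1 encodes a transhydrogenase that forms D-2-hydroxyglutarate while it oxidises 4-hydroxybutyrate. Adhfe1 is thus a source of the metabolite and not an enzyme that clears it.

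The libraries held 23445687 to 30415773 counts assigned to genes. Levels are given as CPM, the counts of a gene per 1000000 counts of its library, scaled by TMM factors that differed little between libraries (0.964 to 1.02), and a count of 3 corresponded to 0.0978 to 0.127 CPM. The tissue is labelled as growth plate chondrocytes. Chondrocyte markers summed to 3068 to 6884 CPM over 6 of the 7 genes listed, with Cnmd not found under that name. Skeletal muscle markers (7 of 7 genes) summed to 13867 to 21468 CPM and osteoblast markers (5 of 5) to 33740 to 47858 CPM, nearly all of it Col1a1, a collagen gene that other connective tissues also use, so RNA of muscle genes and of Col1a1 was abundant in every library. Control 3 had the lowest chondrocyte sum, the highest muscle sum and the most Col1a1. Col2a1 made up most of the chondrocyte sum (1921 CPM in control 3, against 3236 to 5240). Acan, Matn1 and Matn3 were also lowest in control 3, while Sox9 (80.1 CPM) was lower in mutants 2 and 3 and Col9a1 (325 CPM) in mutant 2. The bone matrix genes Ibsp (120 CPM, against 332 to 1474) and Dmp1 (6.75 CPM, against 21.3 to 198) were lowest in control 3. Bglap (0.469 CPM, against 0.423 to 1.74) and Bglap2 (1.15 CPM, against 0.593 to 2.03) were not. Each library was also set against the mean of the other libraries of its own group only. The root mean square deviation of control 3, 0.332 on the log2 scale over 14446 genes, was close to those of control 2 (0.322) and mutant 3 (0.320). The remaining libraries lay between 0.264 and 0.302. By the median absolute deviation control 2 (0.155) stood slightly farther than control 3 (0.153). Mutant 3 had 26356 counts of Xist, the RNA of the inactive X chromosome, against 0 to 13 in the other 5 libraries. Of the 5 tendon markers, 4 were lower in mutants without overlap and 1 of them, Tnmd, was called, while Thbs4, the most abundant, overlapped (sums 1526 to 1676 CPM in controls and 1206 to 1472 CPM in mutants). Of the 6 erythroid markers, 5 were lower without overlap (sums 544 to 1581 and 288 to 426 CPM). Over all tested genes 14.4% had groups that did not overlap, in either direction, and 0.190% were called (edgeR). All 5 osteoblast markers had positive log2 fold changes (median 0.49), of which Dmp1 alone did not overlap and none was called. The part of these and of the Xist differences in the values below was not tested.

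In bulk RNA, fewer cells of a type and less RNA per cell cannot be told apart. Levels of different genes were compared per kilobase of the exon length given in the tables. Idh2 was the highest of the 8 genes in all 6 libraries, at 119.9 ± 12.2 CPM per kilobase (SD over the 6 libraries), and ranked 321 among the 16813 tested genes. The subunits of the NAD-dependent enzyme and Ogdh followed within a narrow band, with 39.4 ± 3.46 for Idh3a, 34.3 ± 2.38 for Idh3b, 33.4 ± 4.19 for Ogdh and 31.8 ± 2.45 for Idh3g. Neighbours in this band overlapped over the libraries. Idh3a exceeded Idh3b in 6 of 6 libraries, Idh3b exceeded Ogdh in 4 of 6, and Ogdh exceeded Idh3g in 2 of 6 only. Idh1, the targeted gene, came after this band at 17.6 ± 3.81 CPM per kilobase and ranked 2866. D2hgdh at 2.12 ± 0.658 and Adhfe1 at 0.469 ± 0.228 CPM per kilobase were far lower, with ranks of 10916 and 14521. From Idh3g downwards no gene overlapped the next over the 6 libraries.

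**Figure D1:**
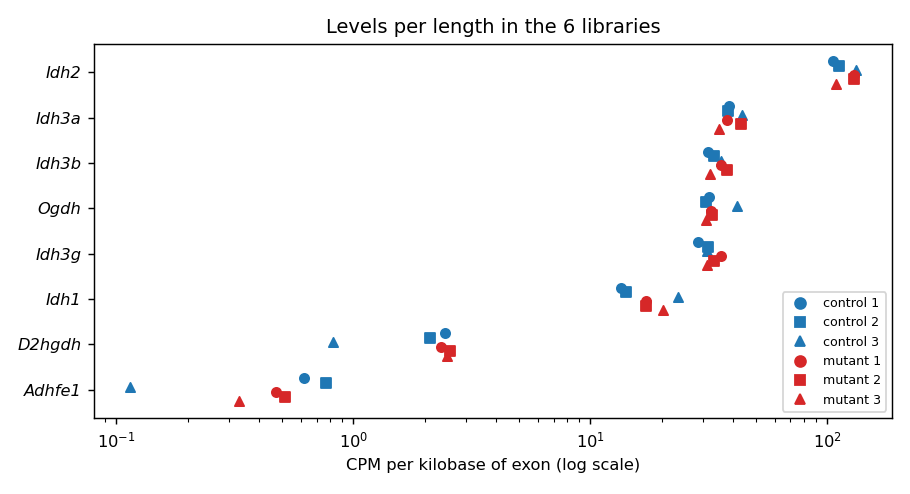
Level of each gene in CPM per kilobase of exon (horizontal axis, log scale) in each of the 6 libraries, with controls in blue and mutants in red. Idh2 lies highest, between 106 and 133, and Adhfe1 lowest, between 0.115 and 0.767.

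Idh1 (ENSMUSG00000025950) lies on the reverse strand of chromosome 1, from 65158616 to 65186500 in GRCm38, the build of all positions given here. The controls had 37.2, 39.1 and 65.3 CPM, and the mutants 47.5, 47.7 and 56.3 CPM. The mutant values fell inside the range of the controls, whose upper end was set by control 3. Controls 1 and 2 lay below all mutants. The log2 fold change (mutant minus control, as throughout) was 0.10 with a standard error of 0.19 and a 95% interval of -0.33 to 0.53, which corresponds to a ratio between 0.795 and 1.44. Without control 3 it was 0.41, with an interval of 0.17 to 0.64 and an adjusted p of 0.322 (edgeR's quasi-likelihood test, adjusted over all genes tested). Without mutant 3 it was 0.01, and over the 6 fits that each left out 1 library it ran from -0.05 to 0.41. Total Idh1 RNA thus gives no check of the genotype labels.

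Idh1 begins next to Pikfyve, a lipid kinase gene transcribed in the opposite direction. The bases between the annotated starts of both genes are shown because they are the shared upstream stretch of the targeted gene. They were read from the RefSeq promoter table for GRCm38.p6 at chr1:65186501-65186682 on the reverse strand, the strand of Idh1. For comparison, the stretch between Idh3g and its own opposite-strand neighbour Ssr4, which encodes a subunit of the translocon-associated complex, is chrX:73786898-73787027 on the reverse strand. Both are printed 5' to 3' on the reverse strand. The first base printed thus lies next to Pikfyve or Ssr4, and the last next to Idh1 or Idh3g. The labels name the genes at the ends and not this order. Capitals mark the letters of a GC box (GGGCGG, written here on the other strand as CCGCCC) and of a CCAAT box (CCAAT).
Idh1 to Pikfyve: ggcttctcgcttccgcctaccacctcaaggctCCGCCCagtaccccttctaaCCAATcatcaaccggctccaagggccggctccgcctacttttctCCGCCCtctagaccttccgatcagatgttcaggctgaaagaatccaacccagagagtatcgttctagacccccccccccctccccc
Idh3g to Ssr4: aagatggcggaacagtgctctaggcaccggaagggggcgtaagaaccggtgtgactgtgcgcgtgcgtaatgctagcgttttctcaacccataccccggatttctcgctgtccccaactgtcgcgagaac
The Idh1 stretch of 182 bases held 2 GC boxes, 1 CCAAT box, no TATA box (TATAAA) and 9 CG pairs, and the Idh3g stretch of 130 bases held none of these motifs and 12 CG pairs. Searched on both strands, GGGCGG was present in 35.7% of the 32851 RefSeq promoter windows of 300 bases, CCAAT in 37.4% and TATAAA in 13.6%, and no match overlapped another in the printed stretches. The printed stretches are shorter than these windows, so the shares are not a like background for them. Windows were found for 6 of the 8 genes. Their CG pairs numbered 11 to 37, against a median of 7 over all windows. Pikfyve itself had 38.9, 36.8 and 36.9 CPM in controls and 31.5, 37.9 and 41.5 CPM in mutants. It differed by -0.02 on the log2 scale (standard error 0.11) and did not share the high Idh1 value of control 3. Ssr4 had 106, 123 and 97.8 CPM in controls and 124, 117 and 128 CPM in mutants. It differed by 0.17 on the log2 scale (standard error 0.10), and the groups overlapped.

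Idh2 (ENSMUSG00000030541, chromosome 7 from 80094846 to 80115392, reverse strand) is the mitochondrial counterpart of Idh1. The controls had 274, 290.5 and 343 CPM, and the mutants 336, 337 and 281 CPM. In each group 1 library stood apart, control 3 upwards and mutant 3 downwards, and the groups overlapped. The log2 fold change of 0.07 (standard error 0.11) had an interval of -0.18 to 0.32, a ratio between 0.883 and 1.25. Per kilobase, Idh2 exceeded Idh1 by 7.56 to 7.95 times in controls 1 and 2 and in mutants 1 and 2. The ratio was lower in the third library of each group, at 5.62 in control 3 and 5.35 in mutant 3.

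The 3 subunit genes of the NAD-dependent enzyme varied little between libraries, by at most 1.26 times between the highest and the lowest. The catalytic subunit gene Idh3a (ENSMUSG00000032279, chromosome 9 from 54586511 to 54604661) had 92.2, 91.7 and 105 CPM in controls and 91.0, 104 and 84.1 CPM in mutants. Idh3b (ENSMUSG00000027406, chromosome 2 from 130279309 to 130284547), which encodes a structural and regulatory partner, had 108, 114 and 122 CPM in controls and 122, 129 and 110.1 CPM in mutants. Neither gene separated the groups. Idh3g (ENSMUSG00000002010, chromosome X from 73778963 to 73786897), which encodes the remaining regulatory subunit, had 76.7, 84.4 and 84.3 CPM in controls and 96.4, 90.0 and 84.2 CPM in mutants. Here 2 of the 3 mutant libraries lay above all controls, and mutant 3, the library with Xist RNA, lay among them. The log2 fold changes were -0.05 for Idh3a (standard error 0.10, interval -0.27 to 0.17), 0.07 for Idh3b (0.09, -0.13 to 0.26) and 0.14 for Idh3g (0.08, -0.05 to 0.32). Idh3g had the lowest p of the 8 genes, 0.123, with an adjusted p of 0.703 (edgeR), and without mutant 3 its log2 fold change was 0.19. Per kilobase, Idh3a was at 1.06 to 1.22 times Idh3b, Idh3b at 0.997 to 1.14 times Idh3g and Idh3a at 1.06 to 1.40 times Idh3g over the libraries.

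Ogdh (ENSMUSG00000020456, chromosome 11 from 6291633 to 6356642, forward strand) had 174, 168 and 228 CPM in controls and 176, 179 and 169 CPM in mutants. Control 3 was again the highest library, and the other 5 lay within 168 to 179 CPM. The log2 fold change was -0.12 (standard error 0.12, interval -0.38 to 0.14), and without control 3 it was 0.03.

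D2hgdh (ENSMUSG00000073609, chromosome 1 from 93824909 to 93852348, forward strand), the gene of the enzyme that removes D-2-hydroxyglutarate, had 10.4, 9.03 and 3.50 CPM in controls and 10.1, 10.9 and 10.6 CPM in mutants. Control 3 was far below the other 5 libraries, which lay between 9.03 and 10.9 CPM. Its 97 counts give a 95% Poisson interval of 2.84 to 4.27 CPM, which covers counting error only, so the low value exceeded what counting alone gives. The log2 fold change of 0.46 (standard error 0.31) had an interval of -0.23 to 1.16, a ratio between 0.852 and 2.23. Without control 3 it was 0.12, with an interval of -0.18 to 0.42 and an adjusted p of 0.836 (edgeR), so the size of the difference rested on that library.

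Adhfe1 (ENSMUSG00000025911, chromosome 1 from 9547948 to 9580673, forward strand) was the lowest of the genes, with 2.34, 2.90 and 0.433 CPM in controls and 1.78, 1.95 and 1.24 CPM in mutants. Control 3, with 12 counts (interval 0.224 to 0.757 CPM), lay below all mutants, and the other controls lay above them. The log2 fold change was -0.21 with a standard error of 0.53 and an interval of -1.39 to 0.98. The direction depended on the library and the tool, at 0.25 without control 2, at 0.12 with limma-voom and at 0.091 and 0.035 with the replicate number as a block (DESeq2 and edgeR). Without control 3 it was -0.67, with an interval of -1.32 to -0.01 and an adjusted p of 0.610 (edgeR). Exons of Adhfe1 share 154 bases with the opposite-strand gene 2610203C22Rik. The tables were counted without regard to strand, so reads of the pair in the shared bases cannot be told apart, and the level of Adhfe1 is uncertain to that extent. 2610203C22Rik had 2.70, 2.74 and 1.52 CPM in controls and 2.62, 2.72 and 3.44 CPM in mutants, with its lowest value also in control 3.

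**Figure D2:**
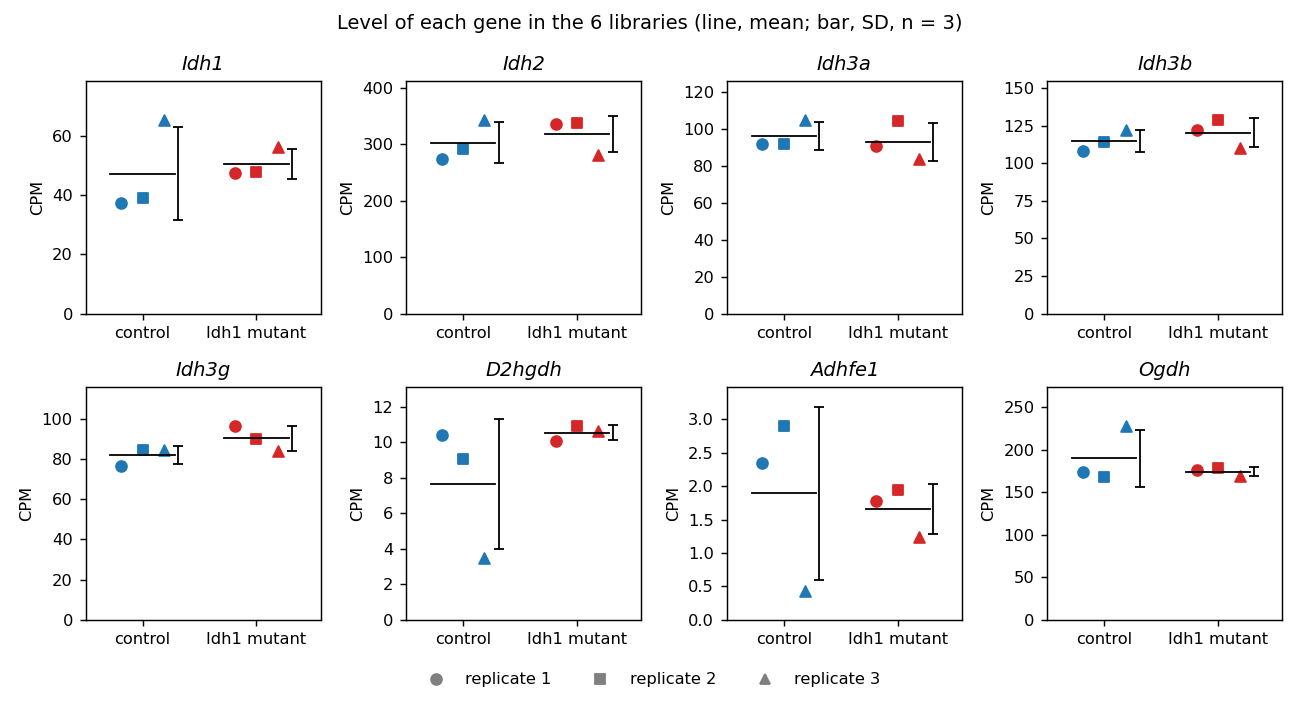
Level of each gene in CPM (vertical axes, each from 0) in the 3 control and 3 mutant libraries, with the mean as a line and the SD as a bar. The groups overlap for all 8 genes, and control 3 is the lowest library for D2hgdh (3.50) and Adhfe1 (0.433) and the highest for Idh1 (65.3).

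Control 3 was thus a library in which several of these genes departed from the other 2 controls, in opposite directions. On the log2 scale it lay above them by 0.77 for Idh1 and 0.42 for Ogdh, and it differed by -1.45 for D2hgdh and -2.40 for Adhfe1. Among all tested genes these deviations stood at percentiles 97.6, 91.5, 0.880 and 0.113. The deviations of Idh2, Idh3a, Idh3b and Idh3g were 0.28, 0.19, 0.14 and 0.07, at percentiles 85.4, 78.2, 72.7 and 62.6. The SD of D2hgdh among controls stood at percentile 97.4 of all genes and among mutants at percentile 17.5. Control 3 also had the steepest trend with base composition, from a median deviation of -0.134 in the lowest of 5 equal groups of genes by G and C content to 0.084 in the highest. Control 1 had a nearly as steep trend the other way, from 0.1085 to -0.0926. Each control was set against the mean of the other controls, so the trends of control 1 and control 3 are not independent. The transcripts of Idh1, Adhfe1 and D2hgdh hold 43.8%, 44.3% and 52.8% G and C, and the part of base composition in their values was not tested.

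None of the 8 genes passed an adjusted p of 0.05 in edgeR's quasi-likelihood test, where 0.190% of all tested genes did. None had an unadjusted p under 0.05 either, against 8.64% of all tested genes, and none had groups that did not overlap, against 14.4%. DESeq2 and limma-voom also called 0 of the 8. In exact two-sided permutation tests of CPM the p-values ran from 0.2 for D2hgdh to 0.9 for Ogdh, and the smallest p that 3 libraries against 3 allow is 0.1. The log2 fold change was positive for 5 of the 8, and the median was 0.07 (range -0.21 to 0.46), against a median of -0.003 over all tested genes. These p-values do not show that the levels were equal. The intervals bound the difference closely for Idh2, Idh3a, Idh3b, Idh3g and Ogdh, whose ratios of mutant to control lay between 0.767 and 1.25 at the outermost bounds, and loosely for D2hgdh and Adhfe1, whose bounds reached 2.23 and 0.382.

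**Figure D3:**
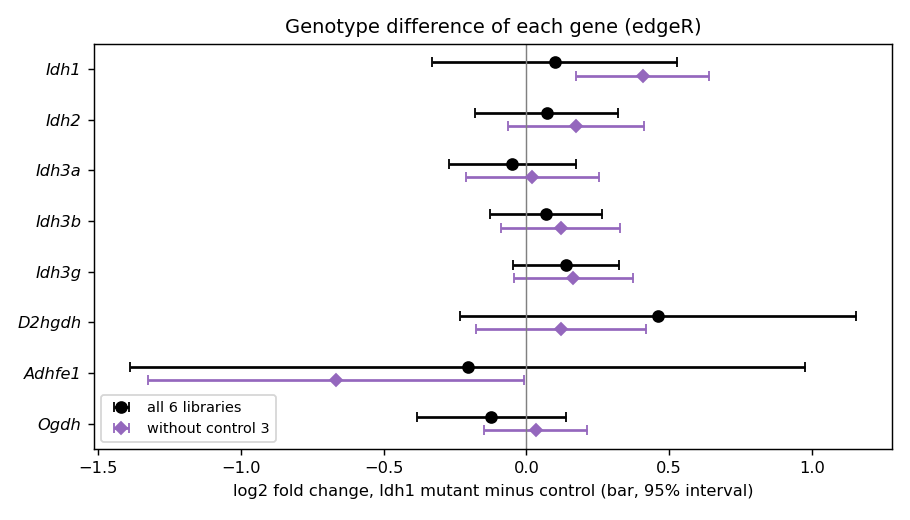
Log2 fold change of each gene (horizontal axis, mutant minus control) with its 95% interval from edgeR, with all 6 libraries in black and without control 3 in purple. With all libraries every interval includes 0, and without control 3 those of Idh1 (0.17 to 0.64) and Adhfe1 (-1.32 to -0.01) do not.

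Because muscle RNA was abundant, the level of each gene was set against the mean log2 CPM of 7 skeletal muscle markers (Acta1, Myh3, Myh8, Ckm, Mylpf, Tnnt3 and Actn3) over the 6 libraries, a relation chosen after the data were seen. The markers' mean was 10.37, 10.53 and 10.91 in controls and 10.75, 10.75 and 10.34 in mutants, so it varied within both groups and did not separate them. Idh2 followed it most closely, with Pearson's r = 0.97 (exact permutation p = 0.00417, adjusted over the 8 genes p = 0.0333) and Spearman's rho = 0.94 (exact permutation, adjusted p = 0.133). With the group means removed r was 0.999 for Idh2. For Idh3b r was 0.89 (exact permutation p = 0.0375, adjusted p = 0.10) and rho was 0.89. Ogdh had r = 0.74 (exact permutation p = 0.0153, adjusted p = 0.0611) and rho = 0.83. Idh3a had r = 0.80 (exact permutation, adjusted p = 0.144). Idh1, Idh3g, D2hgdh and Adhfe1 had r of 0.50, 0.58, -0.63 and -0.53, with adjusted p between 0.191 and 0.321 (exact permutation). Only Idh2 passed the correction, by r and not by rho. That correction covers the 8 genes and not the choice of the relation. The share of all tested genes with so high an r was not taken. Leaving out control 3 and mutant 3, the 2 libraries farthest from the median of the markers, gave r of 0.98 for Idh1, 0.99 for Idh2, 0.47 for Idh3a, 0.96 for Idh3b, 0.95 for Idh3g, 0.28 for D2hgdh, -0.70 for Adhfe1 and 0.57 for Ogdh. In the 4 libraries left both mutants lay at nearly the same marker level above both controls, so genotype and the markers cannot be told apart there and these values do not bear on a relation with muscle. With upper-quartile in place of TMM factors the r of Idh2 was 0.96 with an adjusted p of 0.0944 (exact permutation). The levels and the markers come from the same libraries and scaling, and a relation over 6 libraries does not show in which cells Idh2 is expressed.

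**Figure D4:**
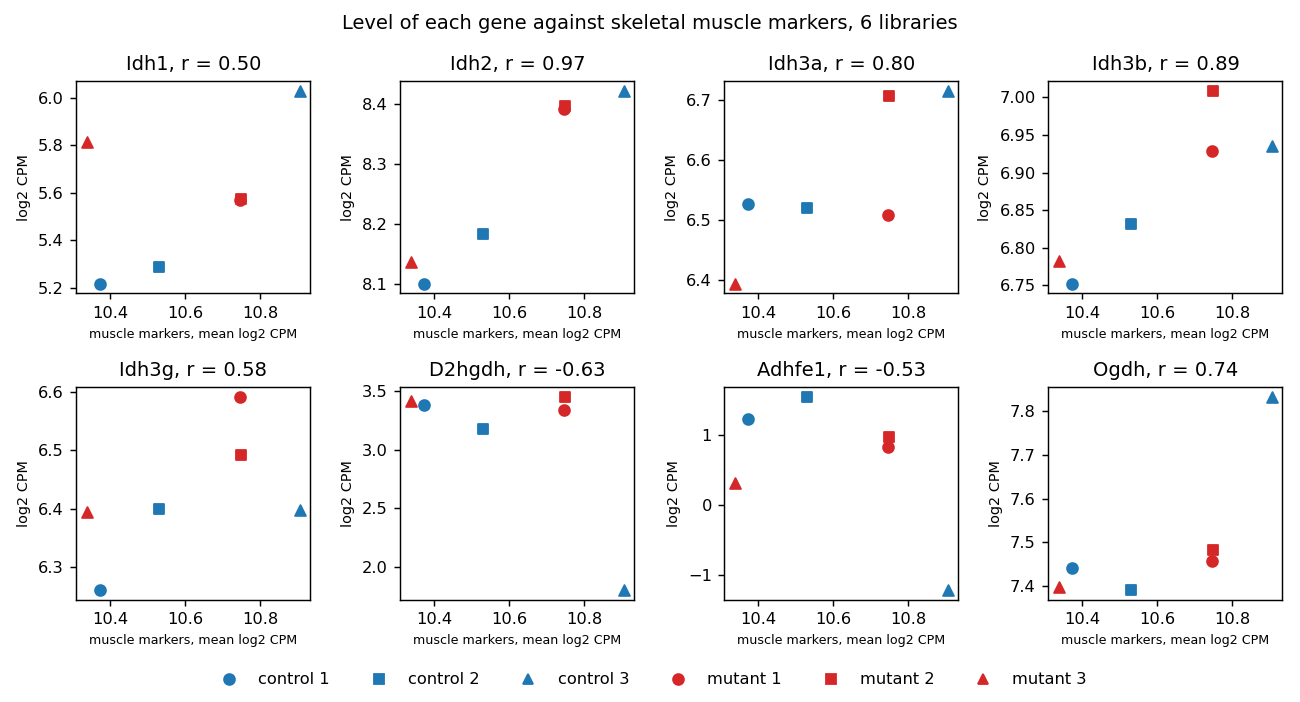
Log2 CPM of each gene (vertical axes) against the mean log2 CPM of 7 skeletal muscle markers (horizontal axes) in the 6 libraries, with controls in blue and mutants in red. Idh2 rises along the markers (r = 0.97) in both groups, and D2hgdh (r = -0.63) is near level except for control 3.

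Among the 8 genes, Idh2 and Idh3b had the most similar patterns over the 6 libraries (r = 0.95), followed by D2hgdh and Adhfe1 (r = 0.85), both of which were lowest in control 3. Idh1 was nearest to Ogdh, at r = 0.70. Over all tested genes, the patterns most like that of Idh1 were those of Hdac7, Hspg2, Timm10, Tmc5 and Gm16153, with r from 0.987 to 0.990. With 6 libraries and 16813 genes such values are a description only.

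The genes around these enzymes were taken from 5 lists holding 48 genes, all of them tested. None passed the adjusted threshold of edgeR (background 0.190%), 4 had an unadjusted p under 0.05 (background 8.64%), and 6 had groups that did not overlap (background 14.4%). The 4 were Psat1, Bcat1 and Phgdh, with positive values, and Gls2 with a negative one. Psat1, Phgdh, Glud1 and Ldha were without overlap higher, and Gls2 and Slc25a13 lower, in mutants, and Bcat1, Gls2 and Slc25a13 are named outside the rule for naming genes, after their values were seen. For the 15 other citric acid cycle genes, including the partners of Ogdh, the log2 fold changes lay between -0.07 and 0.12 with a median of 0.03, and none had an unadjusted p under 0.05. Within that list Cs (citrate synthase) differed by 0.05, Sdha by 0.12 and Sdhd, both genes of succinate dehydrogenase, by 0.01. The 7 genes that bring pyruvate into the cycle had a median of 0.01, with 0.03 for Pdhb and 0.04 for Pdha1, subunits of pyruvate dehydrogenase, and -0.21 for Pcx, pyruvate carboxylase (range -0.21 to 0.04). The 8 mitochondrial carriers had a median of -0.02 (range -0.45 to 0.20), with 0.03 for Slc25a11, the α-ketoglutarate and malate exchanger, -0.02 for Slc25a1, the citrate carrier, and 0.20 for Slc25a10, the dicarboxylate carrier.

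The lists were written with earlier results of these data known. Among their 48 genes, the values farthest from 0 relative to their error were those of Psat1 and Phgdh, enzymes of serine synthesis. Psat1, the aminotransferase that yields α-ketoglutarate from glutamate, had 68.2, 50.9 and 54.9 CPM in controls and 76.2, 92.9 and 93.5 CPM in mutants. All mutants lay above all controls, and the log2 fold change was 0.59 (standard error 0.12), with an adjusted p of 0.141 in edgeR. Phgdh, the dehydrogenase one step earlier in the pathway, which can also form D-2-hydroxyglutarate, had 28.8, 28.7 and 28.2 CPM in controls and 33.2, 44.7 and 40.5 CPM in mutants. Here too the groups did not overlap, and the log2 fold change was 0.47 (standard error 0.11), with an adjusted p of 0.192 (edgeR). DESeq2 gave adjusted p-values of 0.00236 for Psat1 and 0.0344 for Phgdh, where it called 1.17% of all genes. Among the other genes of glutamate and α-ketoglutarate supply, Glud1 (glutamate dehydrogenase) had 151, 156 and 154 CPM in controls and 159, 164 and 182 CPM in mutants. The groups did not overlap, with a log2 fold change of 0.13 and an adjusted p of 0.712 (edgeR). Oat (ornithine aminotransferase) differed by 0.01, and Gls2 (a glutaminase) had 4.47, 3.65 and 3.93 CPM in controls and 2.498, 3.33 and 2.48 CPM in mutants, with an adjusted p of 0.501 (edgeR). Of the genes of lactate dehydrogenase, which can form L-2-hydroxyglutarate, Ldha differed by 0.13 and Ldhb by 0.15, with adjusted p-values of 0.749 and 0.932 (edgeR).

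**Figure D5:**
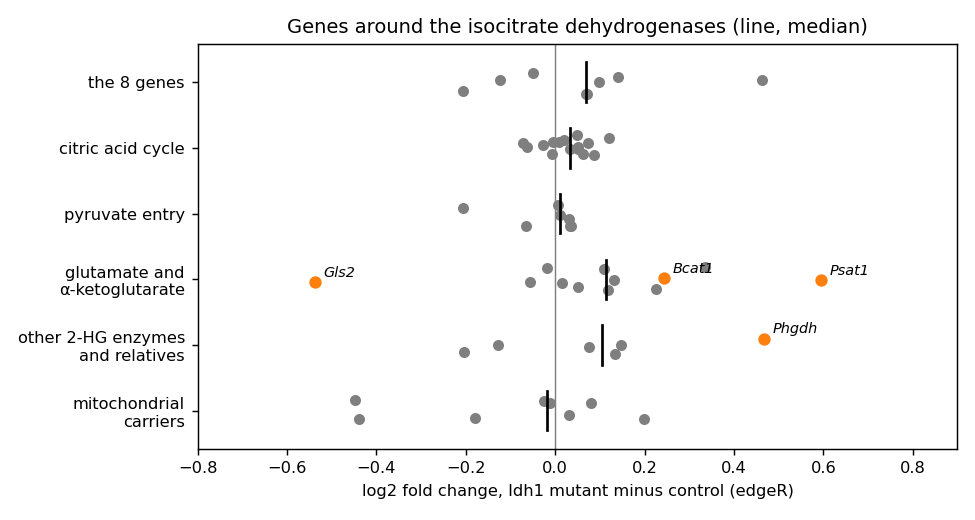
Log2 fold change (horizontal axis, mutant minus control, edgeR) of each gene in the 8-gene set and in 5 lists around it, with each list's median as a line and genes with an unadjusted p under 0.05 in orange. The medians lie between -0.02 and 0.11, and Psat1 (0.59) and Phgdh (0.47) lie farthest to the right.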

How the data were processed

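Growth plate RNA of 6 animals was sequenced from a poly(A)-selected, stranded library. Per the labels and the study's methods, the authors trimmed reads with Trim Galore (0.6.4), aligned them to GRCm38 with STAR (2.6.1d) and counted exon reads per gene with featureCounts (1.6.4). The deposited values are raw counts per gene and library, with an exon length for each gene, and the command in the file headers ignores strand. Groups were taken from the labels, which name the libraries as replicates and give no litter. The p-values thus set the difference between groups against the spread between these libraries, in which any difference between litters is not separated. Low genes were removed by filterByExpr (at least 10 counts, total of at least 15), and edgeR (4.0.16, R 4.3.3) was run with TMM factors and a quasi-likelihood test of genotype, with Benjamini-Hochberg adjustment over 16813 genes and a threshold of 0.05. The study's methods fitted litter as well, which is not used here. CPM of single genes were compared by exact permutation. Alternatives were DESeq2 (1.42.0), limma-voom (3.58.1), upper-quartile factors, other filters, a replicate block and leaving out each library. The scripts' tests were checked on simulated counts. Genes and lists were chosen with earlier results of these data known. Named were all 8 genes and, in each list, every gene called, the 2 with the highest level per kilobase and the 1 with the lowest p, plus the 5 most like Idh1. A gene of the lists is not reported here by name. The growth protocol in the labels mentions adult animals, while the age label reads E18.5.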

Additional observations from a re-analysis of the deposited data

How the results depend on the processing

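None of the 8 genes passed the threshold under any alternative, where the lowest adjusted p was 0.322 when a library was left out and 0.564 otherwise. Of 56 values of the 8 genes under other tools, factors, filters and the replicate block, 53 kept their direction. The 3 that did not were those of Adhfe1, at 0.091 with DESeq2 and the replicate block, 0.035 with edgeR and the block and 0.12 with limma-voom; the cause was not tested. When each library was left out in turn, 42 of 48 values kept their direction. The log2 fold changes ran from -0.049 to 0.41 for Idh1, -0.13 to 0.021 for Idh3a, -0.67 to 0.25 for Adhfe1 and -0.20 to 0.033 for Ogdh, and also crossed 0 for Sdhd (-0.044 to 0.063), Cs (-0.012 to 0.16), Pdhb (-0.019 to 0.11), Oat (-0.041 to 0.098), Ldhb (-0.11 to 0.42), Slc25a11 (-0.022 to 0.084) and Slc25a1 (-0.094 to 0.019). For D2hgdh they ran from 0.12 to 0.74.

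Of the 48 surrounding genes, 2 were called by DESeq2, 1 by DESeq2 with the replicate block and 2 by edgeR without a filter on low counts, against 0. Over all genes the count was 32, and it was 193 with DESeq2, 96 with DESeq2 and the block, 3 with edgeR and the block, 19 with limma-voom, 259 without the filter and 3 to 17 with a library left out. Psat1 had an adjusted p of 0.0383 with DESeq2 and the block and 0.000812 without the filter, and Phgdh 0.0181 without the filter. Without division by length, 2 positions in the order of levels changed, those of Ogdh and Idh3a. The deviations of libraries with the same replicate number had r of -0.13, 0.007 and -0.095 for numbers 1, 2 and 3. Deviations within a group of 3 are tied to each other, so these values cannot show whether libraries shared a litter. With the replicate block edgeR gave 0.14 for Idh1 and 0.58 for D2hgdh. Depth limits Adhfe1 most, with 12 to 89 counts a library.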
